A study of Homo sapiens with 16 samples.

Results

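SNHG1, SNHG3, SNHG5, SNHG6, SNHG7, SNHG8, SNHG12, SNHG15 and GAS5 are spliced transcripts whose introns carry small nucleolar RNAs (snoRNAs), and they were followed here by their translation ratio. They were taken from the deposited table by name, though with earlier results of these data known: 9 of its 28252 genes. All 9 had a ratio in every culture and so were among the 15864 genes tested. The table covers H9 cells, an established human embryonic stem cell line, grown without feeder cells in mTeSR1 medium. Cells received the siRNA labelled NC, taken here as the control, or an siRNA against OCT4 (siOCT4), the pluripotency factor encoded by POU5F1, and were kept at 20% or at 1% oxygen. Each of these 4 groups (NC at 20%, NC at 1%, siOCT4 at 20%, siOCT4 at 1%) has 2 cultures. Each culture was sequenced as an RNA library and as an RNC library (ribosome-nascent chain complex), which holds the transcripts found on ribosomes with a growing peptide, and the translation ratio is the RNC level over the RNA level. Whether replicates came from separately grown cultures is not stated, so p-values measure only the spread between these samples, in 1 cell line.

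A snoRNA guides the modification or processing of ribosomal RNA, and most human snoRNAs are cut out of the introns of a longer host transcript. Box C/D snoRNAs, named SNORD, guide 2′-O-methylation, while box H/ACA snoRNAs, named SNORA, guide pseudouridylation or, for SNORA73, ribosomal RNA processing. The spliced exons that remain hold only short reading frames, yet many hosts begin with the same terminal oligopyrimidine (TOP) start as ribosomal protein mRNAs, are taken up by ribosomes, and are then destroyed by nonsense-mediated decay. GAS5 was first found as a transcript that accumulates in growth-arrested cells.

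The starts of these transcripts are shown because they hold the feature that ties hosts to TOP mRNAs. A TOP-like start was counted where a transcript's first base is C and at least 4 bases after it are all C or T. In GENCODE release 29, 19 of the 121 transcripts of the 9 genes (15.7%) start this way, against 2.41% of all 206694 annotated transcripts, and 7 of the 9 genes have at least 1 such transcript. Printed here are the first 30 bases of the transcript with the longest tract for 6 of them, 5′ to 3′ with the tract in capitals, followed by SNHG7 and SNHG15, for which no annotated transcript has one. A tract of this kind in an annotated start does not show which start these cells use.
SNHG12: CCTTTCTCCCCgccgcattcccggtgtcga
SNHG3: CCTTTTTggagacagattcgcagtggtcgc
GAS5: CTTTTCgaggtaggagtcgactcctgtgag
SNHG5: CTTTTacgtcggccttcgcgagcgtctggg
SNHG8: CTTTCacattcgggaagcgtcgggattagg
SNHG1: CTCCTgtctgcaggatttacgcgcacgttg
SNHG7: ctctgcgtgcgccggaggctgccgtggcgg
SNHG15: ccgccatcctgggccccacgtgttgcctga
On GRCh38 these windows lie at chr1:28581844-28581873 for SNHG12 (minus strand), chr1:28506043-28506072 for SNHG3 (plus strand) and chr1:173867960-173867989 for GAS5 (minus strand). The window of SNHG5 is chr6:85678704-85678733 (minus strand), that of SNHG8 chr4:118278758-118278787 (plus strand) and that of SNHG1 chr11:62855450-62855479 (minus strand). SNHG7 starts in chr9:136728155-136728184 and SNHG15 in chr7:44986541-44986570, both on the minus strand. The tract of SNHG12 is 11 bases long, those of SNHG3 and GAS5 are 7 and 6, and those of SNHG5, SNHG8 and SNHG1 are 5. Such a start is found in 4 of 17 annotated transcripts of SNHG12, 1 of 3 of SNHG3 and 6 of 29 of GAS5. For SNHG5, SNHG8 and SNHG1 it is found in 3 of 23, 1 of 5 and 1 of 25. A gene with many transcripts has more occasions for such a start, and the share of all genes with at least 1 was not computed.

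SNHG6 also belongs to the genes with a TOP-like start, in 3 of its 5 annotated transcripts. As a group the 9 transcripts are short and mostly low in GC for the genes tested. Their median annotated lengths run from 470 bases (SNHG8) to 2201 bases (SNHG3), against a median of 1832 bases over tested genes, and 8 of the 9 are shorter than that. GC content is 42.0% in SNHG6, 42.1% in SNHG8, 42.7% in GAS5, 44.5% in SNHG1 and SNHG5 and 46.3% in SNHG3, all under the median of 50.5%. SNHG12 lies near it at 50.7%, and SNHG15 (54.4%) and SNHG7 (59.9%) lie above it. These are medians over the annotated transcripts of a gene. The longest transcript alone has 49.3% in SNHG8, 56.6% in SNHG12, 49.7% in SNHG15 and 65.9% in SNHG7, and the other members change less. The median longest reading frame per gene runs from 29 codons in SNHG6 to 73 codons in SNHG7. No ratio of a member was one of the recurrent values that 3 or more genes of a culture share.

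Several facts of the whole table bear on every value given here. Library depth is unknown, because the table holds ratios and no counts, and a ratio that moves can reflect the RNC level, the RNA level or both. The median ratio of tested genes lay between 1.02 and 1.35 in all cultures. Transcript GC content accounted for 62.5% and 69.5% of the variance of log2 ratios in the NC cultures at 20% oxygen and for 61.6% and 63.8% in the siOCT4 cultures at 1% oxygen, but for 0.102% to 13.3% in the other 4 cultures. Genes with 40 to 46% GC had a median ratio of 2.97 to 3.43 in the cultures of the steep groups and of 1.01 to 1.27 elsewhere. Each comparison is therefore given on 2 scales: on deposited ratios, and on GC corrected ratios, the residuals of log2 ratios from a smooth curve on GC content in that culture. A corrected rise or fall is one relative to genes of like GC content, and the deposited ratio need not have moved. All 12 pluripotent stem cell markers had a ratio in every culture, as did 4 of 7 fibroblast, 2 of 5 trophoblast, 2 of 5 blood and endothelial and 3 of 3 neuroectoderm markers. POU5F1, the siRNA target, had ratios of 0.758 and 0.981 in NC cells at 20% oxygen, 1.13 and 0.810 in NC cells at 1%, 1.41 and 1.42 in siOCT4 cells at 20% and, at 1%, 0.453 and 0.532 in siOCT4 cells. These do not check the knockdown, since a ratio gives no RNA level.

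**Figure D1:**
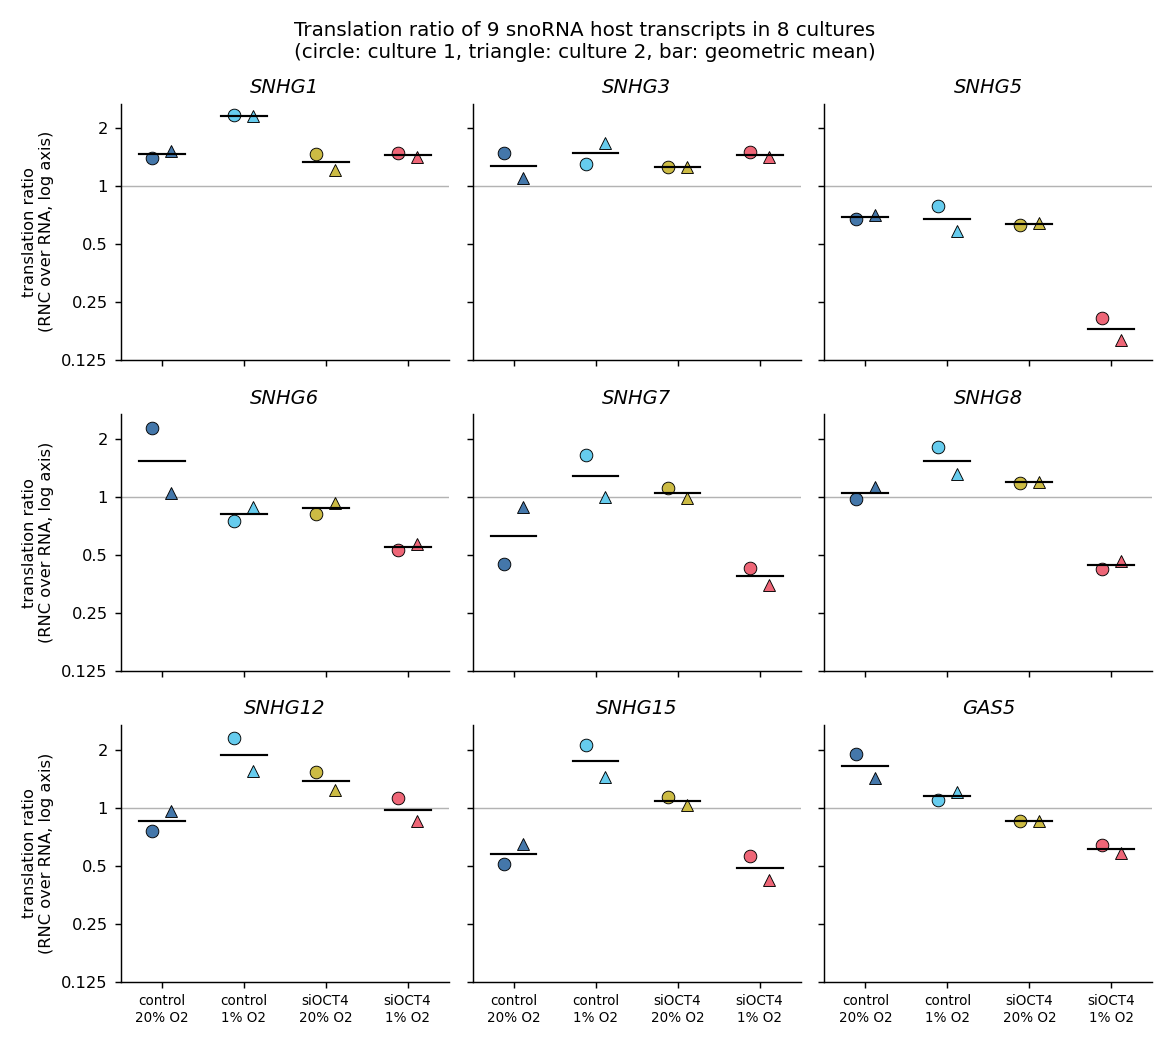
Translation ratio (RNC over RNA, log axis) of each host transcript in the 8 cultures, by siRNA and oxygen. Points are single cultures and bars geometric means of 2 cultures; SNHG5 fell to 0.206 and 0.159 in siOCT4 cells at 1% oxygen, and SNHG1, SNHG12 and SNHG15 were highest in NC cells at 1% oxygen.

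Among the box C/D hosts, SNHG1, which carries SNORD22 and several of its neighbours in number, had ratios of 1.40 and 1.52 in NC cells at 20% oxygen. They were 2.34 and 2.30 in NC cells at 1%, 1.47 and 1.21 in siOCT4 cells at 20% and, at 1%, 1.48 and 1.42 in siOCT4 cells. Both NC cultures at 1% oxygen stood above the other 6 cultures, which overlapped. SNHG5, the host of SNORD50, gave 0.678 and 0.704 in NC cells at 20%, 0.784 and 0.586 in NC cells at 1% and 0.629 and 0.641 in siOCT4 cells at 20%. At 1% oxygen with OCT4 siRNA it gave 0.206 and 0.159, under all other cultures, and only 0.977% and 0.548% of tested genes had as low a ratio there.

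SNHG6, the host of SNORD87, had ratios of 2.27 and 1.04 in NC cells at 20% oxygen, 0.747 and 0.887 in NC cells at 1%, 0.819 and 0.928 in siOCT4 cells at 20% and, at 1%, 0.531 and 0.567 in siOCT4 cells. Its 2 NC cultures at 20% differed 2.18-fold, so its level in that group is poorly known. The GAS5 ratios were 1.90 and 1.42 in NC cells at 20%, 1.10 and 1.21 in NC cells at 1%, 0.853 and 0.854 in siOCT4 cells at 20% and, at 1%, 0.639 and 0.582 in siOCT4 cells. Its 4 groups did not overlap, and both siOCT4 groups lay under both NC groups.

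Among the box H/ACA hosts, SNHG3, which carries SNORA73A and SNORA73B, varied least. Its ratios were 1.49 and 1.10 in NC cells at 20% oxygen, 1.30 and 1.68 in NC cells at 1%, 1.25 in both siOCT4 cultures at 20% and 1.5 and 1.41 in siOCT4 cells at 1%, and the groups overlapped in 4 of their 6 pairs, the siOCT4 cultures at 20% lying under both groups at 1%. SNHG8, the host of SNORA24, gave 0.973 and 1.13, 1.81 and 1.31, 1.19 and 1.19, and 0.422 and 0.465 in the same order of groups. The siOCT4 cultures at 1% oxygen stood under the rest and the NC cultures at 1% above them.

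SNHG15, the host of SNORA9, gave 0.510 and 0.647 in NC cells at 20% oxygen, 2.12 and 1.44 in NC cells at 1%, 1.14 and 1.04 in siOCT4 cells at 20% and, at 1%, 0.563 and 0.420 in siOCT4 cells. Its NC cultures at 20% and siOCT4 cultures at 1% overlapped, and the other groups stood above them. SNHG7, with copies of SNORA17, gave 0.448 and 0.886, 1.65 and 0.996, 1.11 and 0.988, and 0.429 and 0.35 in that order, and its lowest 2 cultures were the siOCT4 cultures at 1%. SNHG12 carries snoRNAs of both classes, among them SNORA44, SNORA61 and SNORD99. It gave 0.756 and 0.957 in NC cells at 20%, 2.29 and 1.55 in NC cells at 1%, 1.53 and 1.24 in siOCT4 cells at 20% and, at 1%, 1.12 and 0.853 in siOCT4 cells.

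The order of the members changed with the group. In NC cells at 20% oxygen GAS5 and SNHG6 led and SNHG7 and SNHG15 closed the order, and the cultures of GAS5 overlapped those of SNHG6, SNHG6 those of SNHG1 and SNHG1 those of SNHG3. In NC cells at 1% oxygen SNHG1 led, apart from SNHG12 in the next place, while SNHG12, SNHG15, SNHG8, SNHG3, SNHG7 and GAS5 each overlapped the next. With OCT4 siRNA at 20% SNHG12 led and overlapped SNHG1, and SNHG5 closed the order, apart from GAS5. With OCT4 siRNA at 1% SNHG3 and SNHG1 led and overlapped, and SNHG5 was again lowest, apart from SNHG7.

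**Figure D2:**
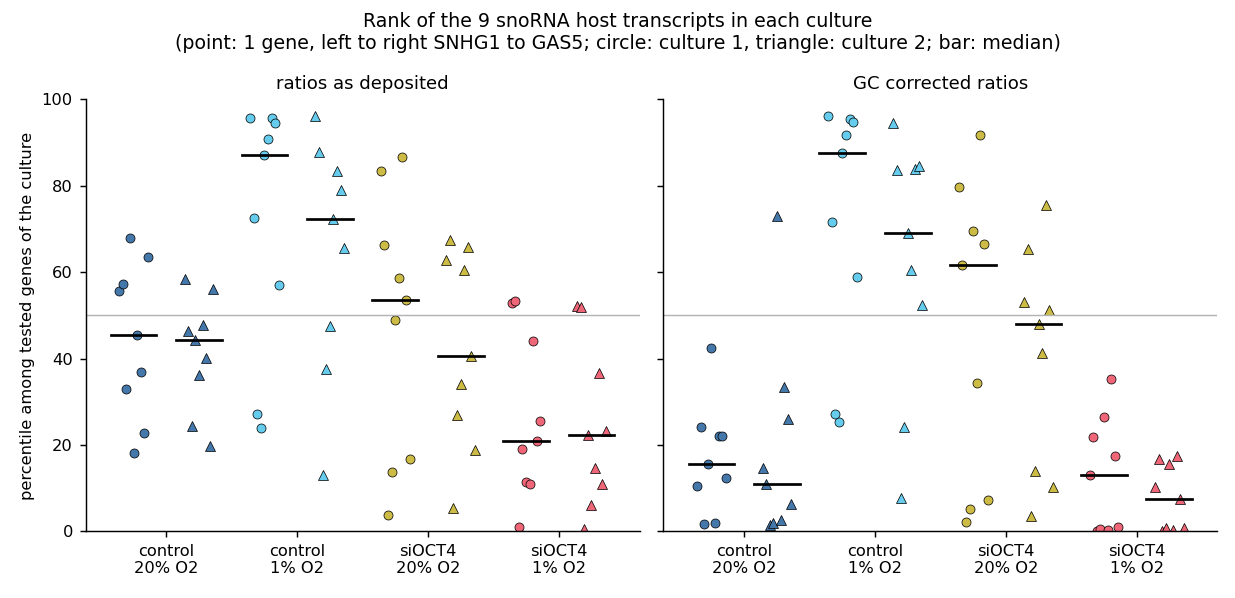
Percentile of each host transcript among the tested genes of its culture, for deposited ratios (left) and GC corrected ratios (right). Points are genes and bars medians over the 9; the GC corrected median was 87.6 and 69.0 in NC cells at 1% oxygen and 13.1 and 7.5 in siOCT4 cells at 1% oxygen.

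Ranking each transcript within its own culture removes shifts of a whole culture. The median percentile of the 9 deposited ratios was 45.5 and 44.2 in NC cells at 20% oxygen, 87.1 and 72.4 in NC cells at 1%, 53.5 and 40.6 in siOCT4 cells at 20% and, at 1%, 21.0 and 22.3 in siOCT4 cells. On GC corrected ratios it was 15.5 and 11, 87.6 and 69.0, 61.7 and 48.0, and 13.1 and 7.5 in the same order. By their median, host transcripts thus ranked high in NC cells at 1% oxygen and low in siOCT4 cells at 1% on either scale. Single members departed from this. In NC cells at 1%, SNHG5 was at 27.2 and 13.2 and SNHG6 at 23.8 and 37.7 as deposited, and both stayed low after correction. In siOCT4 cells at 1%, SNHG1 (52.9 and 52.2) and SNHG3 (53.3 and 52.0) lay just above the median gene as deposited. In NC cells at 20% oxygen the median of the members was near the middle as deposited and low once GC content was taken into account. There all 9 lay under the median gene in culture 1 and 8 of 9 in culture 2. SNHG5, for example, with 44.5% GC, had 0.678 and 0.704 in those cultures, where genes of 40 to 46% GC had medians of 3.43 and 2.97.

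OCT4 siRNA under low oxygen went with lower ratios of most members. At 1% oxygen all 9 log2 differences, siOCT4 minus NC, were below 0, and 7 members fell by the limma test at an adjusted p of 0.05, against 19.9% of all tested genes called lower and 41.1% called higher. SNHG8 fell by 1.80 ± 0.19 on the log2 scale (SE, 2 cultures a group; 3.48-fold lower, limma adjusted p = 0.000673). SNHG5 fell by 1.90 ± 0.25 (3.74-fold lower, limma adjusted p = 0.0014), SNHG15 by 1.85 ± 0.26 and SNHG7 by 1.72 ± 0.39. SNHG12 fell by 0.95 ± 0.26, GAS5 by 0.92 ± 0.18 and SNHG1 by 0.68 ± 0.14. SNHG6, at -0.57 ± 0.36 (limma adjusted p = 0.217), and SNHG3, at -0.02 ± 0.20 (limma adjusted p = 0.931, 95% interval -0.52 to 0.48), did not pass. The median of the 9 was -0.95 where the median of all tested genes was 0.424, so the members moved against a general shift.

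After GC correction all 9 members fell in that comparison, against 23.5% of tested genes called lower. SNHG8 then differed by -3.38 ± 0.29, SNHG5 by -3.23 ± 0.34, GAS5 by -2.44 ± 0.15, SNHG6 by -2.16 ± 0.32 and SNHG1 by -2.01 ± 0.15, and SNHG3 by -1.10 ± 0.15 (limma adjusted p = 0.00314). The 2 members with the highest median GC content over their transcripts moved the other way under the correction, SNHG7 to -1.10 ± 0.23 and SNHG15 to -1.73 ± 0.21. Without siOCT4 culture 2 at 1% oxygen the deposited count was 4, because SNHG1 (limma adjusted p = 0.051), SNHG7 (0.0539) and SNHG12 (0.111) no longer passed. Without NC culture 1 at 1%, SNHG7 (limma adjusted p = 0.0601) and SNHG12 (0.108) did not pass.

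**Figure D3:**
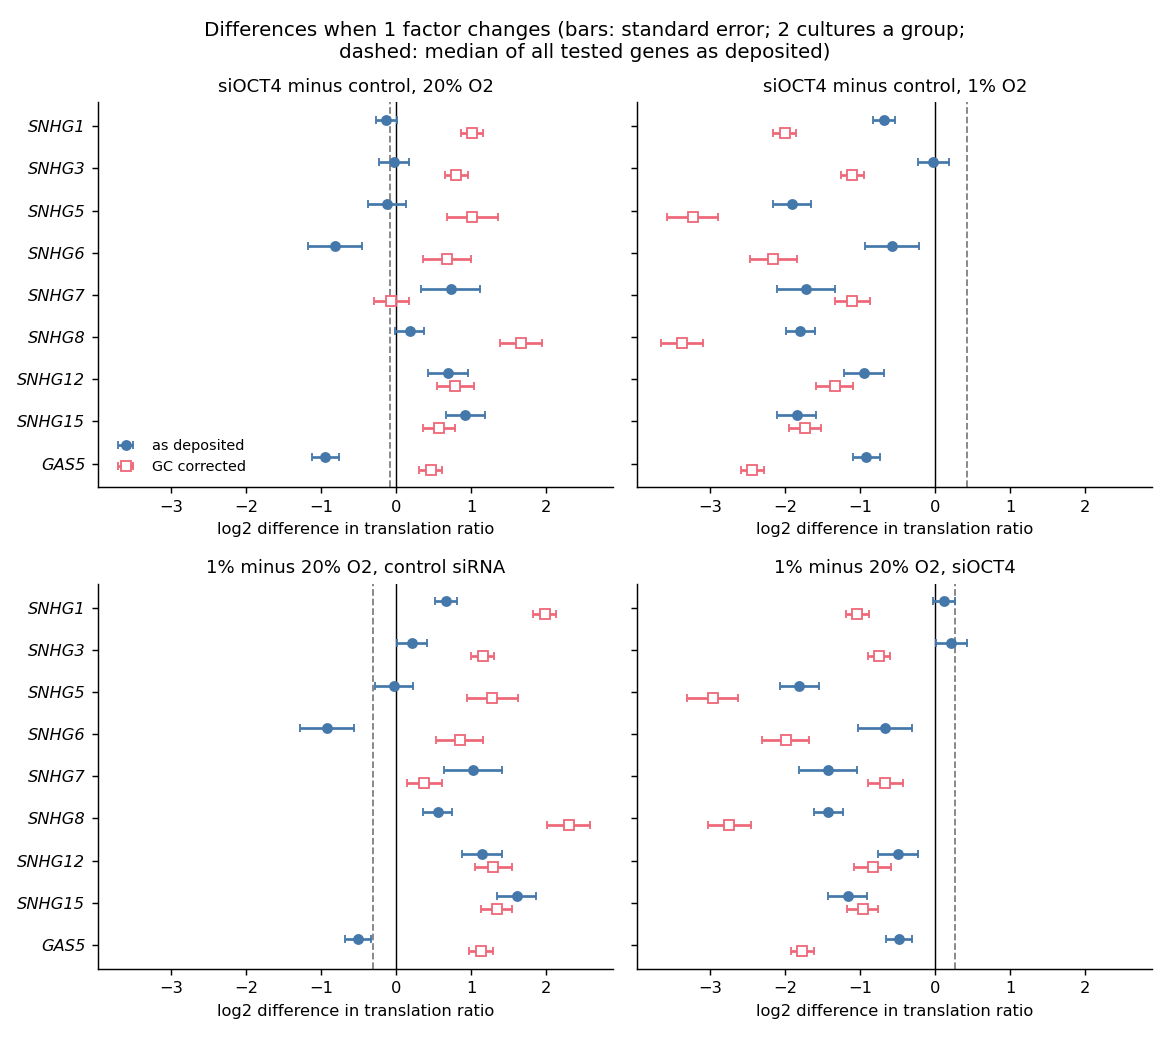
Log2 differences in translation ratio for the comparisons in which either siRNA or oxygen changes, with standard errors from 2 cultures a group, on deposited (circles) and GC corrected (squares) ratios. At 1% oxygen (upper right) all 9 host transcripts lie left of 0 on both scales, while the dashed median of tested genes lies at 0.424.

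Because the GC trend is steep in NC cells at 20% and in siOCT4 cells at 1% oxygen alike, these groups can be compared with little change from the correction, although siRNA and oxygen both differ between them. Against NC cells at 20%, 4 members fell and 0 rose in siOCT4 cells at 1% oxygen, with 13.1% of all tested genes called lower and 13.5% higher. SNHG5 fell by 1.93 ± 0.25 (3.82-fold lower, limma adjusted p = 0.00641) and GAS5 by 1.43 ± 0.18 (2.69-fold lower, limma adjusted p = 0.00594). SNHG8 fell by 1.24 ± 0.19 (limma adjusted p = 0.00906) and SNHG6 by 1.49 ± 0.36 (limma adjusted p = 0.0314). Of these, SNHG5, SNHG6 and GAS5 are box C/D hosts and SNHG8 is an H/ACA host. SNHG7 gave -0.70 ± 0.39 and SNHG15 -0.24 ± 0.26, while SNHG1 (-0.01 ± 0.14, 95% interval -0.37 to 0.35), SNHG3 (0.19 ± 0.20) and SNHG12 (0.20 ± 0.26) lay near 0 with overlapping cultures.

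After GC correction the 4 that fell were again SNHG5 (-1.95 ± 0.34), GAS5 (-1.31 ± 0.15), SNHG6 (-1.31 ± 0.32) and SNHG8 (-1.08 ± 0.29), where 18.8% of genes were called lower and 18.1% higher. The SNHG6 call on deposited ratios was lost without any 1 of the NC cultures at 1% or the siOCT4 cultures at either oxygen level (limma adjusted p from 0.0528 to 0.127), and that of SNHG8 without siOCT4 culture 1 at 1% (limma adjusted p = 0.0596), which left 2 calls. Of the corrected calls, 2 were left without NC culture 2 at 20% or without any 1 of the 4 siOCT4 cultures, and SNHG5 was lost only without NC culture 2 at 20% (limma adjusted p = 0.0533), while GAS5 was lost in none. With transcript length added to the correction only SNHG5 and GAS5 passed, and with quantile normalization only SNHG5. Quantile normalization left 59 of all 15864 genes called higher and 94 lower, against 2135 and 2072 on deposited ratios, so that loss was general. With length added, 2378 of 15396 genes were called higher and 2608 lower, against 2791 and 2899 with GC alone.

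**Figure D4:**
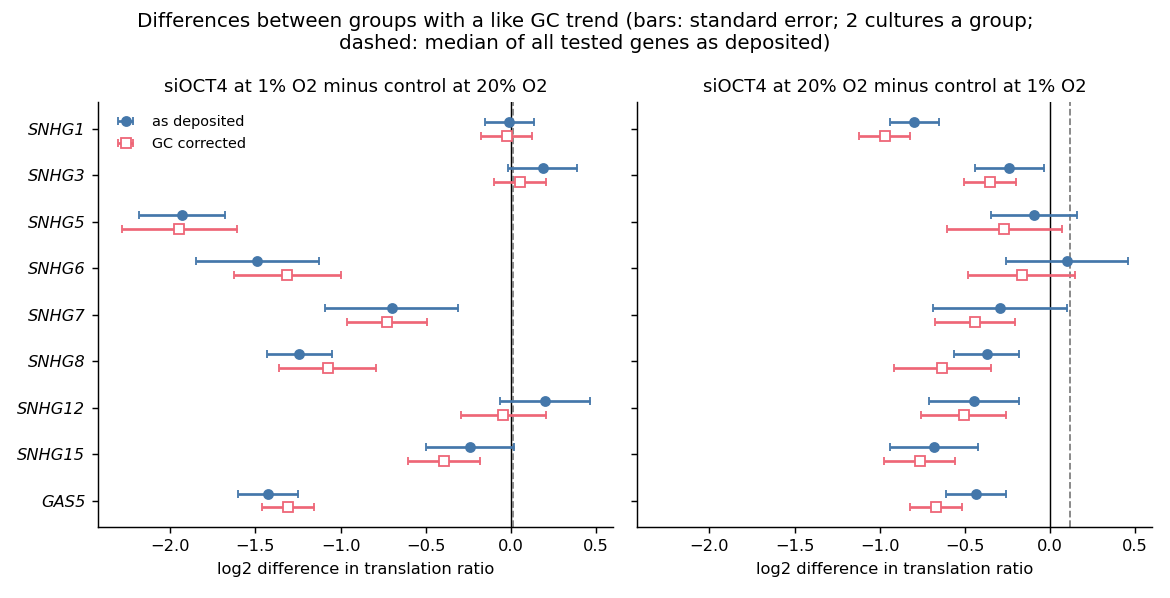
Log2 differences in translation ratio between groups with a like GC trend, with standard errors from 2 cultures a group; circles are deposited and squares GC corrected ratios. SNHG5, SNHG6, SNHG8 and GAS5 lie between -1.24 and -1.93 in the left panel as deposited, and between -1.08 and -1.95 after GC correction.

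The reverse pair, siOCT4 cells at 20% against NC cells at 1% oxygen, both with a weak GC trend, showed small differences. SNHG1 alone fell, by 0.80 ± 0.14 (1.74-fold lower, limma adjusted p = 0.0265), with 2.91% of all tested genes called lower, 8.78% called higher and a median gene at 0.117. After GC correction SNHG1 (-0.97 ± 0.15, limma adjusted p = 0.0125) and GAS5 (-0.67 ± 0.15, limma adjusted p = 0.0327) fell, where 11.5% of genes were called lower. The other members lay between -0.68 (SNHG15) and 0.10 (SNHG6) as deposited. No member passed on deposited ratios without 1 of the NC cultures at 1% or of the siOCT4 cultures at either oxygen level (SNHG1 limma adjusted p from 0.0612 to 0.161). In those fits between 0 and 142 of all 15864 genes were called lower, so the loss was general. Neither corrected call was left without NC culture 1 at 1% or without either siOCT4 culture at 20%, and SNHG1 alone was left without NC culture 2 at 1%.

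On deposited ratios, low oxygen in cells with the control siRNA went with changes in both directions. At 1% against 20% oxygen 4 members rose and 1 fell, with 20.5% of all tested genes called higher and 39.6% lower and a median gene at -0.314. SNHG15 rose by 1.61 ± 0.26 (3.04-fold, limma adjusted p = 0.00279), SNHG12 by 1.15 ± 0.26 (2.21-fold, limma adjusted p = 0.0114), SNHG1 by 0.67 ± 0.14 (limma adjusted p = 0.00893) and SNHG8 by 0.55 ± 0.19 (limma adjusted p = 0.0473). GAS5 fell by 0.51 ± 0.18 (limma adjusted p = 0.0468). SNHG7 gave 1.02 ± 0.39 (limma adjusted p = 0.0644) and SNHG6 -0.92 ± 0.36 (limma adjusted p = 0.0696), and SNHG3 and SNHG5 differed by 0.21 ± 0.20 and -0.03 ± 0.25.

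GC correction turned the GAS5 call: its corrected difference was 1.13 ± 0.15 (limma adjusted p = 0.00281), a rise. After correction 7 members rose and none fell, against 23.2% of genes called higher: SNHG8 by 2.30 ± 0.29, SNHG1 by 1.98 ± 0.15, SNHG15 by 1.34 ± 0.21, SNHG12 by 1.30 ± 0.25, SNHG5 by 1.29 ± 0.34, SNHG3 by 1.16 ± 0.15 and GAS5. SNHG6 (0.85 ± 0.32) and SNHG7 (0.38 ± 0.23) did not pass. The direction of GAS5, the member called on both scales with opposite signs, thus depends on whether ratios are read against genes of like GC content. On deposited ratios the GAS5 call was also lost without any 1 culture other than NC culture 2 at 20% (limma adjusted p from 0.0729 to 0.169), the SNHG8 call without any 1 culture other than NC culture 2 at 1% (0.0587 to 0.193), and the SNHG12 call without NC culture 1 at either oxygen level (0.056 at 1% and 0.0591 at 20%), so that 2 calls were left without NC culture 1 at either level and 3 without any 1 siOCT4 culture. The corrected SNHG5 call was lost without NC culture 1 at 1%, either NC culture at 20% or either siOCT4 culture at 20% (limma adjusted p from 0.077 to 0.115).

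In siOCT4 cells the members that passed for oxygen were all lower at 1%. At 1% against 20% oxygen 4 members fell, against 21.6% of all tested genes called lower, 37.4% called higher and a median gene at 0.268. SNHG5 fell by 1.81 ± 0.25 (3.51-fold lower, limma adjusted p = 0.00199), SNHG8 by 1.43 ± 0.19 (limma adjusted p = 0.00173), SNHG7 by 1.43 ± 0.39 (limma adjusted p = 0.0224) and SNHG15 by 1.16 ± 0.26 (limma adjusted p = 0.0105). GAS5, at -0.49 ± 0.18 (limma adjusted p = 0.0552), SNHG6, at -0.67 ± 0.36, and SNHG12, at -0.50 ± 0.26, did not pass. SNHG1 (0.12 ± 0.14) and SNHG3 (0.22 ± 0.20) were near the median gene.

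GC correction brought the count that fell to 8, against 18.7% of genes called lower and 19.8% higher, with SNHG5 at -2.96 ± 0.34, SNHG8 at -2.74 ± 0.29, GAS5 at -1.77 ± 0.15 and SNHG1, which had lain above 0, at -1.04 ± 0.15. SNHG7 was the member that did not pass (-0.66 ± 0.23, limma adjusted p = 0.0727). On deposited ratios the calls of SNHG7 and SNHG15 were lost without siOCT4 culture 2 at 1% (limma adjusted p = 0.0955 and 0.0567) or without siOCT4 culture 1 at 20% (0.0922 and 0.0562), which left 2, and that of SNHG7 also without siOCT4 culture 1 at 1% (0.0568) or culture 2 at 20% (0.0732). The corrected count was 4 or 5 without either siOCT4 culture at 20% or without siOCT4 culture 2 at 1%.

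At 20% oxygen OCT4 siRNA changed few members. GAS5 fell by 0.94 ± 0.18 (1.92-fold lower, limma adjusted p = 0.00656) and SNHG15 rose by 0.92 ± 0.26 (1.90-fold, limma adjusted p = 0.0271), where 34.1% of all tested genes were called lower and 19.2% higher. SNHG12 gave 0.70 ± 0.26 and SNHG7 0.73 ± 0.39, SNHG6 gave -0.82 ± 0.36, and SNHG1, SNHG3, SNHG5 and SNHG8 lay between -0.13 and 0.18. After GC correction SNHG8 (1.67 ± 0.29), SNHG1 (1.01 ± 0.15) and SNHG3 (0.80 ± 0.15) rose, against 8.52% of genes called higher and 9.12% lower. GAS5 was then at 0.46 ± 0.15 (limma adjusted p = 0.0936) and SNHG15 at 0.58 ± 0.21 (limma adjusted p = 0.114), so neither deposited call held. The SNHG15 call was lost without NC culture 1 or either siOCT4 culture at 20% (limma adjusted p = 0.118, 0.115 and 0.0861), and without NC culture 2 at 20% the count was 4, with SNHG7 and SNHG6 added. No corrected call was left without either siOCT4 culture at 20%, where only 4 and 2 of all 15396 genes were called higher and 0 lower, and 1 was left without NC culture 1 at 20%.

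The siOCT4 effect at 1% oxygen minus that at 20% tests whether the siRNA acted differently at the 2 oxygen levels. It was below 0 and passed for 5 members, against 26.2% of all tested genes called lower and 42.5% higher with a median gene at 0.489. SNHG15 gave -2.77 ± 0.37 (limma adjusted p = 0.000957), SNHG7 -2.45 ± 0.55, SNHG8 -1.98 ± 0.27 (limma adjusted p = 0.00112), SNHG5 -1.78 ± 0.36 and SNHG12 -1.64 ± 0.37. For GAS5 it was 0.02 ± 0.25 (95% interval -0.59 to 0.63), for SNHG3 0.01 ± 0.29 (95% interval -0.70 to 0.71) and for SNHG6 0.25 ± 0.51, and SNHG1 at -0.55 ± 0.20 missed the threshold (limma adjusted p = 0.0529).

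After GC correction the interaction was below 0 and passed for all 9, against 22.7% of genes called lower, from -1.04 ± 0.33 for SNHG7 (limma adjusted p = 0.0477) to -5.04 ± 0.40 for SNHG8. GAS5 was then at -2.90 ± 0.22 and SNHG3 at -1.91 ± 0.21. The corrected SNHG7 call was lost without any 1 of 6 cultures, the exceptions being NC culture 2 at 1% and at 20% (limma adjusted p up to 0.129). None of the 5 deposited calls was lost when 1 culture was left out. Other settings ended 3 of them: SNHG5 with quantile normalization (-0.68, limma adjusted p = 0.147), SNHG12 with GC correction on the longest transcript (-0.55, limma adjusted p = 0.196), and SNHG7 with that correction (-0.16, limma adjusted p = 0.594), with GC and length, and with GC and the replicate block.

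The relation of GC content to the shift across the 9 members differed between comparisons. Pearson's r between GC content and the deposited log2 difference was 0.80 for siOCT4 minus NC at 20% oxygen, 0.74 for 1% minus 20% oxygen in NC cells and -0.68 for the interaction, but only -0.37 for siOCT4 minus NC at 1% oxygen and -0.26 for 1% minus 20% oxygen in siOCT4 cells. After correction these were -0.68, -0.53, 0.73, 0.66 and 0.66, so the sign turned in all 5. Between the groups with a like trend r was 0.43 (siOCT4 at 1% minus NC at 20%) and -0.25 (siOCT4 at 20% minus NC at 1%). The 9 points share their libraries, and the values are descriptions.

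Genes that neighbour or overlap the members could share reads with them, since it is not stated whether counting used strand. At 1% oxygen, siOCT4 minus NC, 2 of the 8 tested neighbours rose and 3 fell, with a median of -0.58. Of all tested genes 41.1% were called higher and 19.9% lower, or 22.5% and 23.5% after GC correction. SLC3A2, which encodes the amino acid transporter subunit CD98 and lies beside SNHG1, fell by 2.45 on the log2 scale (limma adjusted p = 0.000313), and SYNCRIP, an RNA-binding protein gene beside SNHG5, rose by 2.12 (limma adjusted p = 0.000303). After GC correction 3 neighbours rose and 4 fell, and SLC3A2 was at -1.97 and SYNCRIP, with 40.3% GC, at 0.43. The SYNCRIP ratios were 3.49 and 3.13, 0.633 and 0.711, 1.03 and 0.993, and 2.75 and 3.09 for NC at 20% and 1% and siOCT4 at 20% and 1%, a course unlike that of SNHG5. Those of SLC3A2 were 0.261 and 0.318, 2.30 and 1.90, 0.873 and 0.915, and 0.395 and 0.371 in that order. Like SNHG1, SLC3A2 was thus highest in NC cells at 1% oxygen, and whether reads were shared was not tested. RCC1, which shares a transcription unit with SNHG3, had 0.624 and 0.780, 0.649 and 0.537, 0.964 and 0.955, and 0.652 and 0.655 in that order, under SNHG3 in every culture. In siOCT4 cells at 1% against NC cells at 20%, 1 neighbour passed: TRNAU1AP, which lies opposite SNHG12, fell by 0.54 (limma adjusted p = 0.0446). Of 33 snoRNAs listed for the introns of the members 31 were in the table and only SNORA73B had a ratio in all 8 cultures, from 0.371 to 6.84, with no pattern by group.

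**Figure D5:**
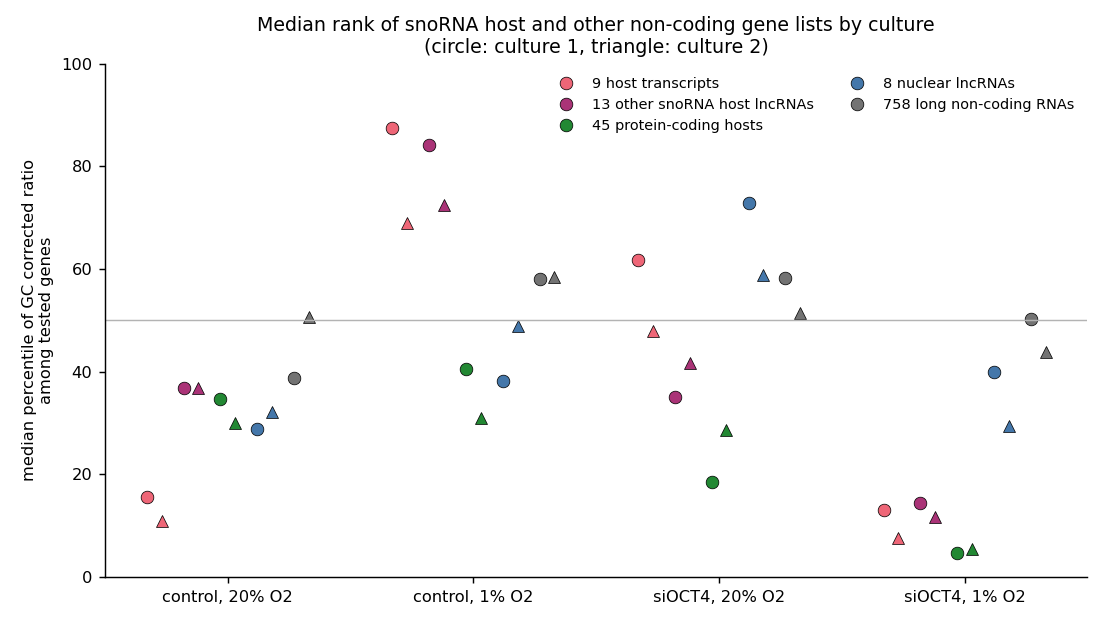
Median percentile of GC corrected ratio among the tested genes of each culture, for the 9 host transcripts, other lists and all long non-coding RNAs (circles culture 1, triangles culture 2). In siOCT4 cells at 1% oxygen the 3 lists of snoRNA hosts had medians between 4.70 and 14.4, and long non-coding RNAs lay at 50.2 and 43.8.

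Other snoRNA hosts gave a basis for comparison. Of 17 further non-coding hosts 13 were tested, and at 1% oxygen 1 rose and 6 fell with OCT4 siRNA, with a median of -0.77. Over all tested genes 41.1% were called higher and 19.9% lower. After GC correction 1 rose and 10 fell, against 22.5% and 23.5% of all genes. SNHG14, the host of the imprinted SNORD115 and SNORD116 clusters, rose by 2.23 (limma adjusted p = 0.000313), and SNHG11 fell by 1.93 (limma adjusted p = 0.00151). Against NC cells at 20%, 4 fell and 0 rose in siOCT4 cells at 1%, on deposited and corrected ratios alike, led by ZFAS1 (-1.84, limma adjusted p = 0.00382) and SNHG16 (-1.19, limma adjusted p = 0.0103). All tested genes gave 13.1% lower and 13.5% higher there, and 18.8% and 18.1% after correction. The ZFAS1 ratios were 2.44 and 1.99 in NC cells at 20%, 1.52 and 1.34 in NC cells at 1%, 1.14 and 1.13 in siOCT4 cells at 20% and, at 1%, 0.588 and 0.647 in siOCT4 cells, which is the order of groups seen in GAS5.

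Among 45 protein-coding genes that host snoRNAs, many of them for ribosomal proteins, 12 rose and 23 fell with OCT4 siRNA at 1% oxygen, with a median of -0.86. Over all tested genes 41.1% were called higher and 19.9% lower. After GC correction 7 of these coding hosts rose and 30 fell, against 22.5% and 23.5% of all genes. The nuclear import receptor gene IPO7 rose by 3.43 (limma adjusted p = 0.000303). In siOCT4 cells at 1% against NC cells at 20% oxygen 6 rose and 20 fell, with RPS20 at -2.12 (limma adjusted p = 0.00655) and RPL21 at -2.07 (limma adjusted p = 0.003), and after GC correction 5 rose and 27 fell. The shares of all tested genes called higher and lower were 13.5% and 13.1%, or 18.1% and 18.8% after correction. At 1% against 20% oxygen in NC cells 11 of these coding hosts rose and 8 fell after correction, beside 23.2% of all genes called higher and 23.2% called lower. Their median corrected percentile in NC cells at 1% was 40.5 and 31.0, against 87.6 and 69.0 for the 9 members, a difference that was not tested.

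Long non-coding RNAs as a class ranked near the middle in siOCT4 cells at 1% oxygen, a difference from the members that was not tested. Over 758 tested ones outside the members, 9.10% were called lower and 22.8% higher with OCT4 siRNA at 1% oxygen, and 15.4% and 9.76% after GC correction. The long non-coding RNAs listed here as nuclear had 5 of 8 called higher and 1 lower in that comparison, where 41.1% of all tested genes were called higher and 19.9% lower. TUG1 was at 2.63 (limma adjusted p = 0.000308) and NEAT1 at -2.01 (limma adjusted p = 0.00139). After correction 1 of the 8 rose and 1 fell, against 22.5% and 23.5% of all genes. In siOCT4 cells at 1% against NC cells at 20% only NEAT1 passed, a rise of 1.47 (limma adjusted p = 0.0142). The 8 had median deposited ratios of 2.14 and 2.07 in NC cells at 20% and 0.887 and 1.15 in NC cells at 1%. With OCT4 siRNA the medians were 1.48 and 1.28 at 20% and 2.32 and 2.07 at 1%. All tested genes had medians between 1.02 and 1.35. After GC correction the median percentiles were 28.7 and 32.2, 38.1 and 48.9, 72.9 and 58.8, and 39.9 and 29.4 in that order. Neither the place of these RNAs in the cells nor whether a high deposited ratio reflects ribosome loading was tested.

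The machinery around host transcripts was read from 3 lists. Of 16 nonsense-mediated decay factors, 7 rose and 3 fell with OCT4 siRNA at 1% oxygen, shares near those of all tested genes (41.1% higher, 19.9% lower), with the core factors UPF2 at 3.23 (limma adjusted p = 0.000303) and UPF3B at 2.36 (limma adjusted p = 0.000998). After GC correction 4 rose and 5 fell, again near the shares of all tested genes (22.5% higher, 23.5% lower). UPF2 was among those that rose (1.60, limma adjusted p = 0.00134), while UPF3B was at 0.85 (limma adjusted p = 0.108). Against NC cells at 20% they showed 6 higher and 2 lower in siOCT4 cells at 1%, or 9 and 0 after correction, with the exon junction protein gene MAGOH at -1.38 (limma adjusted p = 0.0255) and SMG8, a regulator of the SMG1 kinase, at 1.19 (limma adjusted p = 0.00733). All tested genes had 13.5% higher and 13.1% lower, or 18.1% and 18.8% after correction.

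Of 17 snoRNP proteins and assembly factors 7 rose and 6 fell with OCT4 siRNA at 1% oxygen, led by the cap hypermethylase gene TGS1 at 2.31 (limma adjusted p = 0.000303) and the assembly factor gene ZNHIT6 at 1.69 (limma adjusted p = 0.00124), where 41.1% of all tested genes were called higher and 19.9% lower. After correction 3 rose and 9 fell, with TGS1 at 0.96 (limma adjusted p = 0.00167) and ZNHIT6 at -0.03 (limma adjusted p = 0.863). Compared with NC cells at 20%, siOCT4 cells at 1% had 4 higher and 3 lower, with ZNHIT3 at -1.03 (limma adjusted p = 0.0129) and the core C/D protein gene SNU13 at -0.99 (limma adjusted p = 0.00539). Of 11 regulators of TOP mRNAs 7 rose and 3 fell with OCT4 siRNA at 1%, again beside 41.1% and 19.9% of all tested genes. TIA1 was at 2.16 (limma adjusted p = 0.000562) and LARP4 at 1.76 (limma adjusted p = 0.00105). After correction 1 rose and 3 fell, with TIA1 at 0.43 (limma adjusted p = 0.0294) and LARP4 at 0.12 (limma adjusted p = 0.481). Compared with NC cells at 20%, siOCT4 cells at 1% had 2 higher and 1 lower: MTOR, the kinase that drives TOP mRNA translation, at 1.21 (limma adjusted p = 0.0056), and the cap-binding protein gene EIF4E at -1.16 (limma adjusted p = 0.00596) were the 2 with the largest change. Of all tested genes 13.5% were called higher and 13.1% lower in that pair of groups. For OCT4 siRNA at 1% oxygen the shares after correction were 22.5% and 23.5%.

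The 3 tested genes outside the members whose 8 log2 ratios ran closest to the members' mean were ALKBH5 (Pearson's r = 0.985), an RNA demethylase gene, SNHG29 (0.984), another non-coding snoRNA host, and RPLP0 (0.984), a ribosomal stalk protein gene. These values over 8 cultures are a description. RPLP0 had ratios of 0.614 and 0.607 in NC cells at 20% oxygen, 1.14 and 1.02 in NC cells at 1%, 0.708 and 0.782 in siOCT4 cells at 20% and 0.269 in both siOCT4 cultures at 1%. SNHG29 had 0.711 and 0.812, 1.09 and 0.879, 0.747 and 0.799, and 0.416 and 0.405 in that order, so both were highest in NC cells at 1% and lowest in siOCT4 cells at 1%. Of the members, SNHG8 followed the mean of the 9 most closely (r = 0.98) and SNHG3 least (r = -0.15).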

How the data were processed

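H9 cells were sequenced as 16 libraries, 8 of RNA and 8 of RNC. The deposited values are ratios: the authors divided the RNC level by the RNA level of each gene and culture. The submitters' processing notes name edgeR and hg19. For the aligner, the counting and the scaling of ratios the entry is the same: not given in the sources used here. Columns headed sO were read as siOCT4, and 0 columns of values were left unmapped. Of 28252 genes, 15864 had a ratio in all 8 cultures and were tested, 4505 had one in some cultures and 7883 in none. Without counts, the depth and its precision are unknown.

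Log2 ratios, with no pseudocount, were fitted with limma 3.58.1 (trend and robust settings, R 4.3.3) over all 4 groups, leaving 4 residual degrees of freedom, and p-values were adjusted by Benjamini-Hochberg over all tested genes at 0.05. GC correction took residuals from a spline with 6 degrees of freedom on the median transcript GC content of GENCODE release 29 (GRCh38), known for 15396 genes (97%). The procedure was tested on simulated data in which all genes shared the same GC trend, so that test does not cover genes that depart from it. The members and lists were chosen with earlier results of these data known. Named genes are all members, up to 2 genes per list with the largest difference among those that passed, any gene that may share reads with a member, and the 3 genes whose profiles ran closest to the members' mean. Of these, 1 gene is not reported here. Alternatives were pseudocounts, centring, quantile normalization, GC and length corrections, a replicate block, other variance settings, fewer groups or genes, and leaving out each culture. The labels do not say that replicate numbers pair the cultures, so the main fit has no block.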

Additional observations from a re-analysis of the deposited data

Results flagged for a closer look

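For 5 host transcripts the response to OCT4 siRNA differed between oxygen levels by the interaction test itself. The siOCT4 effect at 1% minus that at 20% oxygen, on the log2 scale of deposited ratios, was -1.78 for SNHG5, -2.45 for SNHG7, -1.98 for SNHG8, -1.64 for SNHG12 and -2.77 for SNHG15. The median of all tested genes was 0.489, and 26.2% of them were called lower and 42.5% higher, so such a difference was common in the table. The calls of SNHG8 and SNHG15 held under every setting tried on all 8 cultures, whereas SNHG5 reached -0.68 with quantile normalization (limma adjusted p = 0.147), and SNHG7 and SNHG12 reached -0.16 (limma adjusted p = 0.594) and -0.55 (limma adjusted p = 0.196) with GC correction on the longest transcript. The steep GC trend is found in the NC cells at 20% and the siOCT4 cells at 1% oxygen, so its course over the groups is itself that of an interaction, and its part in these values was not tested beyond the correction given with them.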

How the results depend on the processing

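Directions turned mainly with GC correction, and the cause was not tested. In the order GC corrected, GC and length corrected, GC corrected on the longest transcript and GC corrected with the replicate block, siOCT4 minus NC at 20% oxygen became 1.01, 1.04, 0.97 and 1.01 for SNHG1 and 0.46, 0.49, 0.29 and 0.46 for GAS5. For SNHG3 it became 0.80 with either of the GC and GC and length corrections. At 1% minus 20% oxygen in NC cells, GAS5 became 1.13, 1.16, 0.94 and 1.13 in that order, and 0.046 with quantile normalization, while SNHG5 became 1.29, 1.31 with length, and 1.29 with the replicate block. In siOCT4 cells SNHG1 became -1.04, -0.76, -0.99 and -1.04, and SNHG3 became -0.75, -0.82 with length, and -0.75 with the replicate block. The interaction became -1.91, -1.97, -1.31 and -1.91 for SNHG3 (-1.33 with quantile normalization), -2.84, -2.52, -2.45 and -2.84 for SNHG6 and -2.90, -2.63, -2.61 and -2.90 for GAS5.

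The number of members that passed moved as follows. For siOCT4 minus NC at 20% oxygen, 2 became 1 with quantile normalization and 4 without genes of shared ratios. Over all genes, those called higher and lower there went from 3041 and 5409 of 15864 to 579 and 1259 with quantile normalization. Without genes of shared ratios they were 2644 and 3661 of 8166. For 1% minus 20% oxygen in NC cells, 5 became 3 with the replicate block, 3 without trend and robust settings and 2 with only the groups compared. Over all genes the main fit called 3255 higher and 6290 lower, and the replicate block 2870 and 6015. Without trend and robust settings 3303 and 6273 were called, and 2104 and 5463 with only the groups compared. In siOCT4 cells 4 became 8 with GC correction, 7 with GC and length, and 7 with GC and the replicate block. The interaction went from 5 to 9, 8 and 8 under the same settings. Over all genes, those called lower in siOCT4 cells went from 3426 of 15864 to 2882, 2674 and 2468 of 15396. For the interaction they went from 4157 to 3500, 3502 and 3158, so here the members did not follow the table. For siOCT4 at 1% minus NC at 20%, 4 became 2 with GC and length and 1 with quantile normalization. All genes called lower there went from 2072 to 2608 and to 94. For siOCT4 at 20% minus NC at 1%, 1 became 2 with GC correction on either transcript choice, 3 with GC and length, 3 with quantile normalization, and 0 with the replicate block or only the groups compared. All genes called lower went from 462 to 1770 and 1767 with GC correction, 1784 with GC and length and 2707 with quantile normalization. They were 133 with the replicate block and 74 with only the groups compared, so these counts moved with the whole table. Leaving out 1 culture gave 1 to 4 calls for siOCT4 minus NC at 20% oxygen, 4 to 8 at 1%, 2 to 6 for oxygen in NC cells, 2 to 6 in siOCT4 cells, 5 to 6 for the interaction, and 2 to 4 and 0 to 1 for the last comparisons. After GC correction the ranges were 0 to 3, 8 to 9, 6 to 7, 4 to 8, 8 to 9, 2 to 4 and 0 to 2.

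The replicate block left siOCT4 minus NC at 20% and 1% oxygen, oxygen in siOCT4 cells and the interaction at 2, 7, 4 and 5 calls, and siOCT4 at 1% minus NC at 20% at 3. The 6 correlations of same-numbered deviations between groups lay between -0.233 and 0.0225. They cannot show whether same-numbered cultures were handled together, because each group gives only 1 such deviation per gene. Where a culture is left out, its lone partner is assumed to vary like the other groups. Groups of 2 cultures leave wide intervals, and with no counts a noisy ratio of a weakly expressed gene cannot be told from a precise one.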
